A study of Mus musculus with 2 samples.

Results

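The genes described here encode exchange factors and adaptors grouped around the small GTPase Rac: Dock1, Dock4, Dock5, Dock10, Elmo1, Elmo2, Elmo3, Tiam1 and Tiam2. The rule lists them by name and uses no value, although the set was proposed with earlier results of these data known. All 9 are among the 18032 genes listed. Polyadenylated RNA was sequenced from 1 library of each of 2 wild-type mouse cell populations. The mESC library is from ES-E14TG2a embryonic stem cells, kept in serum-free 2iLIF (N2B27 with 1 µM PD0325901, 3 µM CHIR99021 and 100 units/ml LIF), in which ERK signalling and GSK3 are inhibited and cells hold the naive state. The cEpiSC library is from such cells plated on fibronectin, kept for 24 h in 2iLIF and then for 2 days in N2B27 to which FGF2 (12 ng/ml) and activin A (20 ng/ml) had been added, which moves them towards the primed state. The libraries therefore differ in state, medium and coating together, and these cannot be told apart. With 1 library per state there is no replicate check and no test: all intervals below are 95% intervals for counting error only.

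Rac cycles between a resting form bound to GDP and an active form bound to GTP, and exchange factors load it with GTP at the places where a cell builds branched actin. Dock proteins are large exchange factors with a catalytic domain of their own kind, and Elmo proteins are not exchange factors themselves but adaptors that bind some Dock proteins, hold them at the membrane and couple them to the GTPase RhoG. Tiam proteins belong to the other, Dbl class of exchange factors, and Tiam1 is known for its work at cell-cell contacts with polarity proteins. In pluripotent cells, which grow as tightly joined colonies, Rac activity bears on contacts, spreading and migration.

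The members split in both directions. In cEpiSC, Elmo1 and Dock10 were higher by 2-fold or more, and Elmo3, Tiam1 and Dock1 lower by as much. Elmo2, Tiam2, Dock4 and Dock5 lay within 2-fold. Of all 13243 genes that reached 1 CPM (counts scaled to library size) in either library, all 9 members included, 13.6% were higher by that size and 9.25% lower, 22.8% in all, against 5 of 9 members (55.6%). Dock10 passed the 1 CPM filter only through cEpiSC, where it is high, and so had to differ. With a filter at 5 CPM, which leaves out Dock10 and Tiam2, 4 of 7 members were past 2-fold (1 higher, 3 lower), against 17.1% of genes. Elmo3 (12.0 CPM in mESC and 4.98 in cEpiSC) passed that filter only through mESC, where it is high. The contrast depends on the unit and the pseudocount. With FPKM and a pseudocount of 1 only 1 of 9 members was past 2-fold (11.1%), against 12.3% of all tested genes. Without a pseudocount, the deposited FPKM of Dock1 (14.37 and 6.97), Elmo3 (5.01 and 2.15) and Tiam1 (8.6 and 3.94) were more than 2-fold lower in cEpiSC. With TPM and the same pseudocount 4 of 9 were, against 15.4%, and with ratios centred on length 3 were higher and 1 lower, against 22.3%. The members' median log2 ratio of cEpiSC over mESC was 0.05 and that of all tested genes -0.02. Genes of low level pass 2-fold more often, with classes set by the library of higher level. Among those reaching 1 to 10 CPM, where Dock10 and Tiam2 lie, 45.7% did. Among those reaching 10 to 100 CPM 15.8% did, and 4 of 6 members (Elmo1, Elmo3, Tiam1 and Dock1). Elmo1 (7.18 CPM in mESC and 30.9 in cEpiSC) and Elmo3 reached 10 CPM only in the library where they are high. Above that class 12.2% did, and Dock5 lies there.

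**Figure D1:**
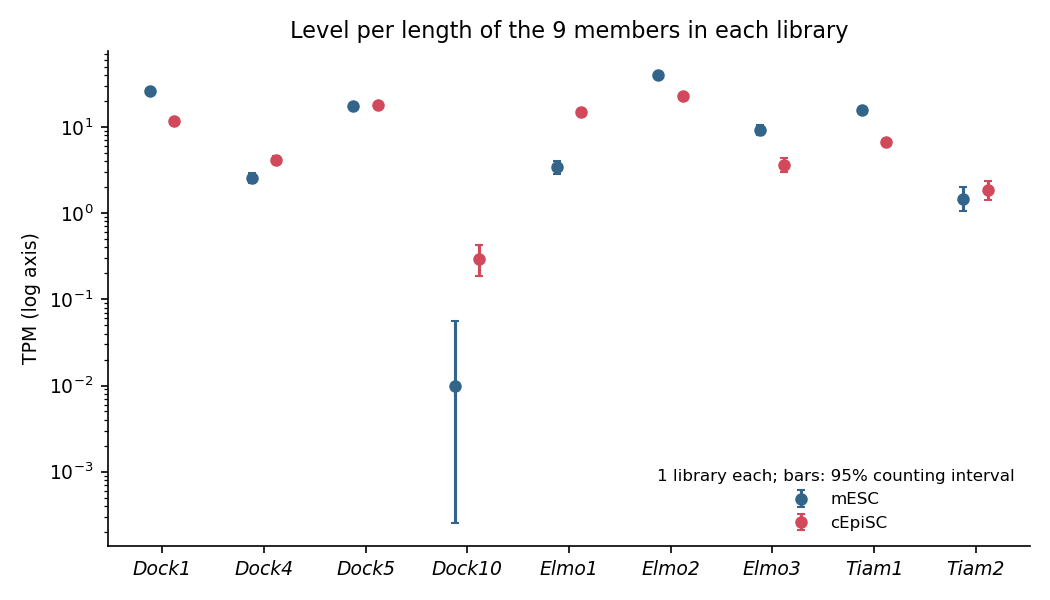
Level per length of each member in TPM (deposited values scaled per transcript length, log axis) in the mESC library (blue) and the cEpiSC library (red), with 95% counting intervals. Elmo1 and Dock10 stand higher in cEpiSC, Dock1, Elmo2, Elmo3 and Tiam1 lower, and Dock5 is near 18 TPM in both.

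The Elmo adaptors differed most in their make-up. Elmo1, known from the uptake of dying cells and from blood cell migration, had 139 counts in mESC and 633 in cEpiSC, or 7.18 and 30.9 CPM. Its intervals, 6.04 to 8.48 and 28.6 to 33.4 CPM, lay far apart. The level was 4.31-fold higher in cEpiSC (3.58 to 5.21), a log2 ratio of 2.09 (1.84 to 2.38), which is at or above that of 94.5% of tested genes. Under all 9 alternative settings Elmo1 stayed at least 2-fold higher, with log2 ratios from 1.78 to 2.16. The settings that only change the filter leave a gene's own ratio as it was by construction.

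Elmo2, the broadly expressed paralog, had 1576 counts in mESC and 985 in cEpiSC, or 81.4 and 48.1 CPM. It was 1.69-fold lower in cEpiSC (1.56 to 1.83), a log2 ratio of -0.76 (-0.88 to -0.64), short of the 2-fold size. Elmo3 had 233 and 102 counts, or 12.0 and 4.98 CPM, and was 2.42-fold lower (1.91 to 3.08), a log2 ratio of -1.26 (-1.62 to -0.93). Its interval reaches across the 2-fold line, and with FPKM and a pseudocount of 1 the ratio was -0.93, within 2-fold.

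Per length, the summed level of the 3 Elmo transcripts was 52.6 TPM in mESC and 41.2 TPM in cEpiSC. Elmo2 made up 76.0% of that sum in mESC, with Elmo3 at 17.5% and Elmo1 at 6.50%. In cEpiSC Elmo2 still led at 54.8%, but Elmo1 had moved up to 36.4% and Elmo3 down to 8.83%. There were 11.7 Elmo2 transcripts for each Elmo1 transcript in mESC and 1.51 in cEpiSC. Since both genes are counted in the same libraries, their relative shift does not rest on the scaling between libraries: Elmo1 was 7.28-fold higher relative to Elmo2 (5.95 to 8.96) and 10.4-fold relative to Elmo3 (7.65 to 14.2). Elmo2 and Elmo3, both lower, differed less from each other: Elmo2 was 1.43-fold higher relative to Elmo3 (1.11 to 1.84).

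**Figure D2:**
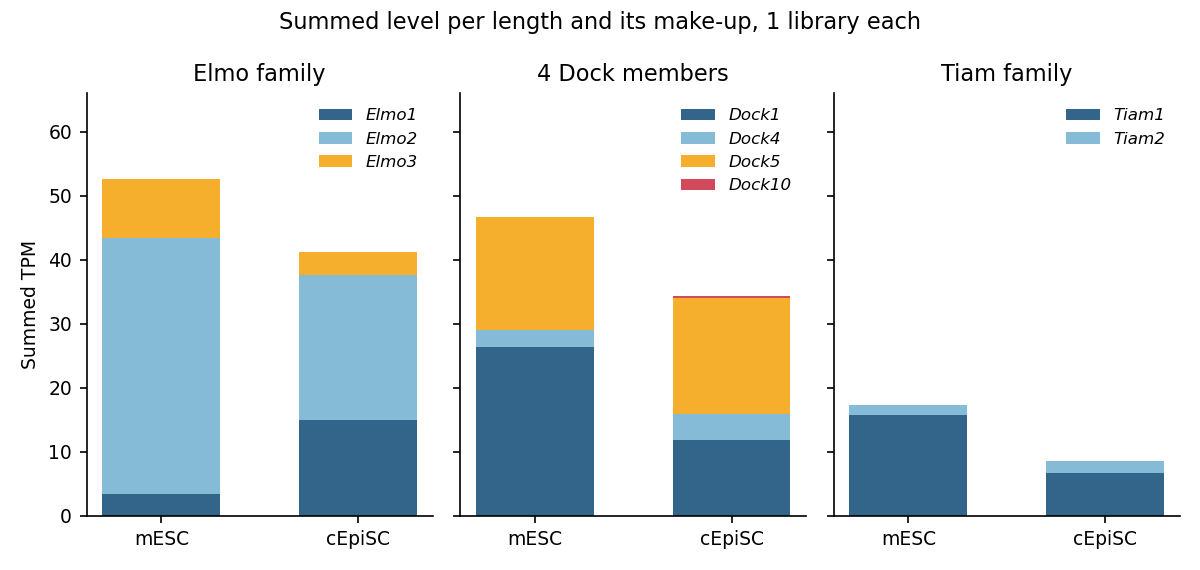
Summed TPM of the 3 Elmo genes, the 4 Dock members and the 2 Tiam genes in each library, stacked by gene (bars start at 0). Elmo1 widens from 3.42 to 14.98 TPM while Elmo2 narrows from 39.94 to 22.59 TPM, and Dock1 and Dock5 exchange places as the larger part of the Dock bar.

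Among the Dock members, Dock1 and Dock5 are close paralogs that both use Elmo proteins and act on Rac. Dock1, also called Dock180 and known from cell migration, engulfment and muscle cell fusion, had 1925 counts in mESC and 937 in cEpiSC, or 99.5 and 45.8 CPM. It was 2.17-fold lower in cEpiSC (2.01 to 2.35), a log2 ratio of -1.12 (-1.23 to -1.01). This size depends on how long transcripts are treated. Dock1 lies in the longest decile of tested genes, whose median log2 ratio was -0.32. Centring on the median of each decile left Dock1 at -0.80, within 2-fold. FPKM with a pseudocount of 1 also left Dock1 within 2-fold (-0.95), while the deposited FPKM, 14.37 and 6.97, were more than 2-fold apart.

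Dock5, which is known from the bone-resorbing activity of osteoclasts, had 1885 and 2059 counts, or 97.4 and 100.6 CPM. The log2 ratio was 0.05 (-0.04 to 0.14), an interval that includes 0 and covers counting error only. Centring on length moved the ratio to 0.36. Dock5 was 2.24-fold higher relative to Dock1 (2.03 to 2.48). Per length, Dock1 led Dock5 in mESC at 26.4 against 17.7 TPM, and Dock5 led Dock1 in cEpiSC at 18.1 against 11.8 TPM. The sum of this pair was 44.1 TPM in mESC and 29.9 TPM in cEpiSC.

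Dock4, an exchange factor of a separate Dock subgroup that also binds Elmo proteins, had 227 and 406 counts, or 11.7 and 19.8 CPM. It was 1.69-fold higher in cEpiSC (1.43 to 2.00), a log2 ratio of 0.75 (0.52 to 1.00), and reached 1.07 when ratios were centred on length. Dock10 belongs to the subgroup best known for acting on the related GTPase Cdc42 and is abundant in lymphocytes. It had 1 count in mESC and 25 in cEpiSC, or 0.0517 and 1.22 CPM. The ratio of 23.6-fold has an interval from 3.87 to 971, so the size of the difference is poorly fixed by these counts. On the per-length scale Dock10 stood at 0.29 TPM in cEpiSC, the lowest of the members in both libraries, and with a pseudocount of 1 TPM its log2 ratio was 0.35.

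Both Tiam genes were present in both libraries, with Tiam1 far above Tiam2. Tiam1 had 1164 counts in mESC and 527 in cEpiSC, or 60.2 and 25.8 CPM. It was 2.34-fold lower in cEpiSC (2.11 to 2.59), a log2 ratio of -1.22 (-1.38 to -1.07). Like Dock1 it lies in the longest decile of tested genes. It was within 2-fold after centring on length (-0.90) or with FPKM and a pseudocount of 1 (-0.96). Tiam2, a paralog known from neurons, had 40.06 and 63 counts, the first not whole, a mark of reads divided between loci. At 2.07 and 3.08 CPM its log2 ratio was 0.55 (-0.02 to 1.18), an interval that includes 0, and the depth does not settle whether these libraries differed.

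Tiam2 was 3.48-fold higher relative to Tiam1 (2.27 to 5.38). Tiam1 made up 91.5% of the summed Tiam level of 17.3 TPM in mESC and 78.2% of the 8.52 TPM in cEpiSC. The Tiam sum was thus 2.03-fold lower in cEpiSC, the sum of the 4 Dock members 1.36-fold lower (46.7 and 34.3 TPM) and the Elmo sum 1.28-fold lower. All 9 members together came to 116.5 TPM in mESC and 84.0 TPM in cEpiSC. The 4 Dock members and Tiam1 lie in the longest decile of tested genes, whose median log2 ratio was -0.32. These sums were not centred on length.

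**Figure D3:**
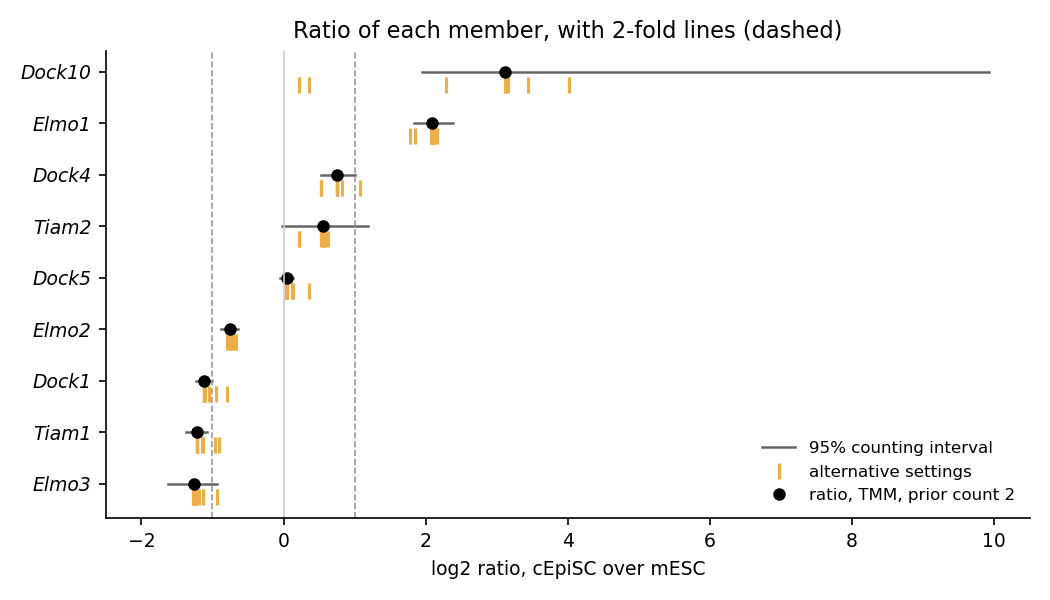
Log2 ratio of cEpiSC over mESC for each member (points) with the 95% counting interval (grey lines), and the ratios under the alternative settings (yellow marks). Dashed lines mark 2-fold: Elmo1 stays beyond its line under every alternative tried, while marks for Dock1, Tiam1, Elmo3 and Dock10 reach inside. The Dock4 mark for ratios centred on length lies beyond the upper line, at 1.07. Marks of the filter settings equal the main ratio by construction.

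In mESC the order by TPM ran Elmo2 (39.9), Dock1 (26.4), Dock5 (17.7), Tiam1 (15.8), Elmo3 (9.22), Elmo1 (3.42), Dock4 (2.55), Tiam2 (1.47) and Dock10 (0.01). Only Elmo1 and Dock4 were neighbours whose counting intervals overlapped. In cEpiSC it ran Elmo2 (22.6), Dock5 (18.1), Elmo1 (14.98), Dock1 (11.8), Tiam1 (6.66), Dock4 (4.13), Elmo3 (3.64), Tiam2 (1.86) and Dock10 (0.29). There the overlapping neighbours were Dock4 and Elmo3. Elmo1 thus stood at rank 6 in mESC and rank 3 in cEpiSC.

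**Figure D4:**
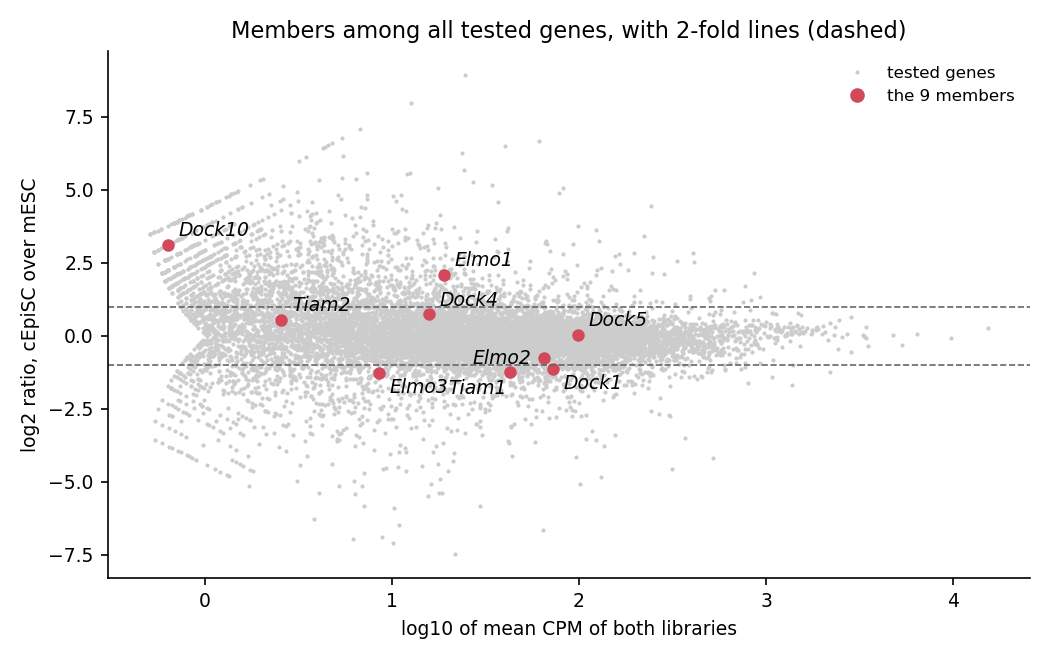
Log2 ratio of cEpiSC over mESC against the log10 of the mean CPM for 13243 tested genes (grey) and the 9 members (red), with dashed lines at 2-fold. Elmo1 at 2.09 lies beyond the 2-fold line, as 15.8% of genes reaching 10 to 100 CPM do in either direction. Elmo1 reached 10 CPM only in cEpiSC. Dock10 at 3.12 lies at the left edge, among genes of the lowest mean level tested.

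The members' loci and annotated starts are given in GRCm38.p6 coordinates from RefSeq, with strand from GENCODE vM21. Elmo1 spans 518 kb on chromosome 13 (20090507 to 20608353, plus strand), Dock1 503 kb on chromosome 7 (134670687 to 135173647, plus) and Dock4 401 kb on chromosome 12 (40445957 to 40846874, plus). Tiam1 spans 358 kb on chromosome 16 (89787111 to 90145600, minus), Dock10 258 kb on chromosome 1 (80501068 to 80758765, minus), Tiam2 193 kb on chromosome 17 (3326313 to 3519397, plus) and Dock5 182 kb on chromosome 14 (67751928 to 67933572, minus). Elmo2 spans 38.4 kb on chromosome 2 (165288031 to 165326479, minus) and Elmo3 only 5.16 kb on chromosome 8 (105305461 to 105310623, plus).

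Protein-coding neighbours overlap or lie close to 5 of these loci, and whether the counting used strand is not stated in these sources. The 3′ end of Tiam2 overlaps Tfb1m on the opposite strand over 12089 bases of GENCODE gene span, and Tfb1m had 367 and 479 counts against the 40.06 and 63 of Tiam2. Inside Dock1 lies Fam196a on the opposite strand, with 16 and 32 counts, few beside those of Dock1. Elmo3 begins 230 bases beyond the end of E2f4 on the same strand, which had 5660 and 5915 counts and lay within 2-fold. Slc35c2, also on the same strand, lies 161 bases from Elmo2, with 720 and 344 counts and a log2 ratio of -1.14, the direction of Elmo2. Zfp277 lies 49 bases from Dock4 on the opposite strand, with 1226 and 1442 counts. The part of these neighbours in the members' counts was not tested.

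The deposited counts and FPKM together imply a transcript length for each gene and library, taking the sum of listed counts as the fragment total. A gene whose reads are assigned to longer or shorter isoforms in 1 library would show unequal lengths. For Tiam2 the implied length was 2523 bases in mESC (2508 to 2539 from rounding of FPKM) and 2870 bases in cEpiSC (2857 to 2883). For Elmo1 it was 3766 (3756 to 3776) and 3584 bases (3582 to 3586), and for Dock5 9885 (9880 to 9890) and 9651 bases (9647 to 9656). Dock1, at 6751 and 6736 bases, hardly differed, and for Dock10 the single mESC count fixes no length. These bounds cover rounding and not counting error, and the levels of single isoforms were not analysed here.

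Promoter windows, from 250 bases before to 50 after an annotated start, were found in the RefSeq table for 7 of the 9 members, with 14 starts in all. Dock5 and Elmo3 had no entry. Windows of the first starts listed for Dock1, Dock10, Dock4, Elmo2 and Elmo1 were rich in CpG pairs, with 34, 32, 29, 24 and 21 in 300 bases, against a median of 7 and an upper quartile of 20 over 32851 windows of all genes. Those listed for Tiam1 held 7 and 9 and those for Tiam2 11, 2 and 6. The first start listed for Tiam1 (89974699) lies inside its locus, which begins at 90145600 on the minus strand. That for Tiam2 (3397207) also lies inside, beyond the locus start at 3326313. Windows at the 5′ ends of both Tiam loci were therefore not among those read. Dock1 and Elmo2, lower in cEpiSC, and Elmo1 and Dock10, higher, thus all have a CpG-rich first start.

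Both Elmo1 windows and the first windows of Elmo2, Dock1 and Tiam1 are printed because these abundant members differed most or contrast within a family. Each shows 280 bases, 250 before and 30 after the start, 5′ to 3′ on the gene's strand, as in RefSeq on GRCm38.p6. Capitals mark letters of binding motifs for factors that act downstream of the media, searched on both strands: CTTTGA for TCF/LEF factors of the Wnt pathway, TTCNNNGAA for STAT factors, CCGGAAG for ETS factors, TGANTCA for AP-1 and AAGGTCA for Esrrb.
Elmo1 first start, chr13:20090257-20090536 plus strand: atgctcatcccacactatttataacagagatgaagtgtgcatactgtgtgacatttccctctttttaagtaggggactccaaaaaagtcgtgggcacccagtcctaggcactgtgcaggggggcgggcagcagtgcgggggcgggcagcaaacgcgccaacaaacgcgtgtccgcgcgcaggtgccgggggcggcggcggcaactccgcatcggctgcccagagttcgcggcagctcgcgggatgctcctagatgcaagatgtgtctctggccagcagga
Elmo1 second start, chr13:20472740-20473019 plus strand: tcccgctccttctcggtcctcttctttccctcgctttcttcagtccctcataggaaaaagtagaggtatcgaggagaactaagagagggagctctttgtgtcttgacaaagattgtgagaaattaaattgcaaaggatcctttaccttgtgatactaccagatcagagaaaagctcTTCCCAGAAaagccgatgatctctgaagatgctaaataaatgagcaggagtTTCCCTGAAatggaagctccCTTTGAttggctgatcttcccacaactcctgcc
Elmo2 first start, chr2:165326450-165326729 minus strand: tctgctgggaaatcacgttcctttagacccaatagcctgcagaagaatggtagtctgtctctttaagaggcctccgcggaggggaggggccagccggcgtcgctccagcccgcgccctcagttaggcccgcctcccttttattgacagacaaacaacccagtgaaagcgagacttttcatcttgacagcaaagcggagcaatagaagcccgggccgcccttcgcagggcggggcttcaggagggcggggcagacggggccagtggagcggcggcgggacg
Dock1 start, chr7:134670437-134670716 plus strand: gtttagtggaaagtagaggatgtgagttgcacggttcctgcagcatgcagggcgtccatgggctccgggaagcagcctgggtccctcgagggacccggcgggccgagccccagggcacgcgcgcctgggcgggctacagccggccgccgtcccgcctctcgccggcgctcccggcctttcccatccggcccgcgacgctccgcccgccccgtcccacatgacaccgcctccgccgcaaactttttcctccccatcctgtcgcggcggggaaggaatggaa
Tiam1 first start, chr16:89974670-89974949 minus strand: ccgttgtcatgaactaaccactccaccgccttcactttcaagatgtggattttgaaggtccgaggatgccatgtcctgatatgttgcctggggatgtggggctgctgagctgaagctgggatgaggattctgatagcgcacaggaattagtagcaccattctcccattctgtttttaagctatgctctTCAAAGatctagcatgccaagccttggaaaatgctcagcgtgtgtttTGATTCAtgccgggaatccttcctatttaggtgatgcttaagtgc

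The second Elmo1 start lies 382 kb into the gene, and its window held 2 STAT matches, TTCCCAGAA beginning 74 bases and TTCCCTGAA beginning 23 bases before the start, and 1 TCF/LEF match beginning 3 bases before it. The first Elmo1 window, the first Elmo2 window and the Dock1 window held none of the 5 motifs. The first listed Tiam1 window, which is not at the 5′ end of the locus, held a TCF/LEF match beginning 62 bases before its start. It also held an AP-1 match, TGATTCA, beginning 15 bases before that start. The AP-1 letters searched allow any base at the centre, and in this match it is T. Dock4, not printed, held an ETS match and overlapping STAT and AP-1 matches, the AP-1 match (TGAATCA) with A at the centre. Of the other windows not printed, the second of Dock10, the second of Tiam1 and the third of Tiam2 each held a TCF/LEF match and the second of Elmo2 an ETS match. Esrrb letters were in none of the 14 windows. Of all 32851 windows 16.0% held the TCF/LEF letters, 8.30% STAT, 8.86% ETS, 7.81% AP-1 and 4.72% Esrrb, so such matches are common. A match describes the letters only, and the files do not say which start gave the transcripts counted.

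Beside the 4 Dock members, 7 other Dock genes are listed. Of the 6 that were tested, 1 was lower, none was higher and 5 were within 2-fold, near the 77.2% of all tested genes that lay within it. Their median log2 ratio was -0.36, or -0.046 after centring on length. The lower gene was Dock8, an exchange factor for Cdc42 known from immune cells, with 46 and 18 counts (-1.34 [-2.31 to -0.62]). Dock8 passed the 1 CPM filter only through mESC, where it is high (2.38 and 0.88 CPM). Dock2, the blood cell paralog of Dock1 and Dock5, had only 16 and 20 counts and did not reach 1 CPM. Of the summed level of all 11 Dock genes, 106.7 TPM in mESC and 81.0 TPM in cEpiSC, Dock1 held 24.8% and 14.6% and Dock5 16.6% and 22.4%.

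Of 22 tested exchange factors outside these families, 4 were higher and 1 lower, and 17 were within 2-fold. Their median was -0.14, and the share past 2-fold, 22.7%, was close to the 22.8% of all tested genes. Arhgef4, also called Asef and known to bind the Wnt regulator APC, went from 5.84 to 15.1 CPM (1.36 [1.06 to 1.69]), and its paralog Spata13, or Asef2, from 7.54 to 19.1 CPM (1.33 [1.06 to 1.62]). Rasgrf2 had 2 and 27 counts (2.80 [1.68 to 6.79]) and Vav3 5 and 24 (1.83 [0.76 to 3.93]), and both passed the 1 CPM filter only through cEpiSC. Farp1, the lower gene, named after its value was seen, went from 62.2 to 30.8 CPM, at the edge of the size rule (-1.01 [-1.15 to -0.87]).

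Of 8 tested Rac and related GTPase genes 7 lay within 2-fold, 1 was lower and none was higher, a share past 2-fold of 12.5% against 22.8% of all tested genes, and their median was 0.05. Rac1 stood at 226 and 216 CPM and Rhog, whose product binds Elmo proteins, at 11.6 and 10.6 CPM, both within 2-fold. Rac2, the form best known from blood cells, went from 12.7 to 5.13 CPM (-1.29 [-1.65 to -0.97]). Of 3 genes for dissociation inhibitors, which hold GTPases in the cytosol, 1 was higher: Arhgdib, with 19 and 127 counts (2.54 [1.96 to 3.44]). Arhgdib passed the 1 CPM filter only through cEpiSC (0.98 and 6.21 CPM). The share past 2-fold was 33.3%, against 22.8% of all tested genes. The median of those 3 was -0.08.

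Genes that switch Rac off lay on both sides. Of 11 tested Rac GTPase-activating genes 4 were higher and 1 lower by 2-fold, and 6 were neither, a share past 2-fold of 45.5% against 22.8% of all tested genes. Their median was -0.26, or 0.091 with no filter on low abundance. Arhgap25, which passed the filter only through cEpiSC, had 3 and 25 counts (2.37 [1.27 to 5.35]). Arhgap33 had 45 and 171 (1.80 [1.36 to 2.35]), Arhgap22 70 and 260 (1.78 [1.43 to 2.21]) and Chn2 100 and 258 (1.27 [0.95 to 1.63]). Arhgap15, the lower gene, named after its value was seen, had 94 and 46 counts (-1.08 [-1.65 to -0.59]).

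Of 15 tested adaptors and receptors upstream of Dock1 and Elmo, 10 lay within 2-fold, 4 were higher and 1 was lower, a share past 2-fold of 33.3% against 22.8% of all tested genes. Their median was -0.29, or -0.16 with FPKM and a pseudocount of 1. Bcar1, which encodes p130Cas, a docking protein that recruits Crk and Dock1 to integrin adhesions, was the abundant member that differed most, at 47.1 and 200.5 CPM (2.09 [1.99 to 2.19]). Adgrb1, a receptor for dying cells that binds Elmo1, went from 2.17 to 6.35 CPM (1.51 [1.04 to 2.09]) and the engulfment adaptor Gulp1 from 2.02 to 5.96 CPM (1.52 [1.03 to 2.12]). Mertk, an engulfment receptor named after its value was seen, went from 4.13 to 8.80 CPM (1.07 [0.70 to 1.49]). The lower gene was Stab2, a scavenger receptor, with 83 and 33 counts (-1.36 [-2.04 to -0.81]). Crk and Crkl, the adaptors that bind Dock1 directly, stood at 127.6 and 96.7 CPM and at 112.0 and 78.3 CPM, within 2-fold. They were also named after their values were seen.

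**Figure D5:**
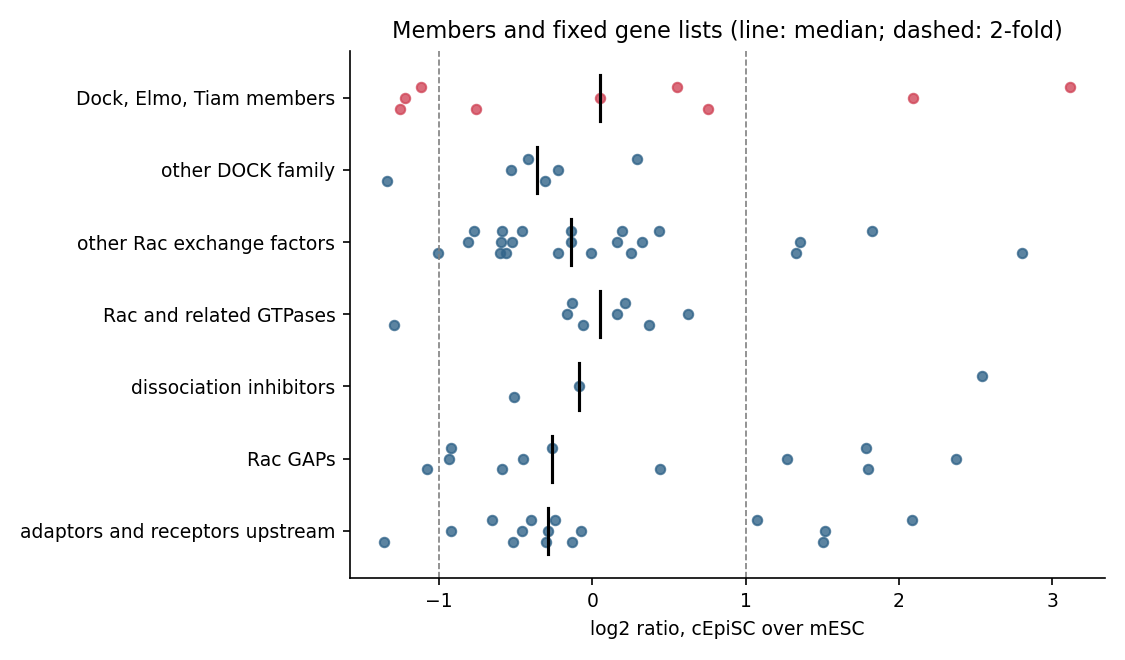
Log2 ratios of cEpiSC over mESC of tested genes in the member set (red) and in 6 fixed gene lists (blue). Black lines are medians, which lie between -0.36 and 0.05, and dashed lines mark 2-fold, which 5 of 9 members and 5 of 11 Rac GTPase-activating genes pass.

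The libraries carried the marker genes of their labels. They held 19843731 (mESC) and 19956736 (cEpiSC) estimated counts. Naive markers summed to 4598 CPM in mESC and 1960 CPM in cEpiSC, with 6 of 10 at least 2-fold lower and none higher. Primed or formative markers summed to 143 and 1251 CPM, with 9 of 9 higher. Only 5 of those 9 reached 1 CPM in mESC. The others, Fgf5, Pou3f1, Sox11 and Lef1, passed the filter only through cEpiSC, where they are high. Since Elmo1, Dock10 and Dock2 are abundant in blood cells, markers of those cells were read as well. Of 9 found, 2 were higher and 2 lower, and the pan-leukocyte gene Ptprc had 0 counts in both libraries. Their sum went from 252 to 120 CPM, of which Laptm5 alone was 236 and 94.9 CPM. The higher ones, in the direction of Elmo1 and Dock10, were Itgam with 10 and 219 counts (4.13) and Coro1a with 25 and 58 (1.08). Itgam passed the 1 CPM filter only through cEpiSC. The lower ones were Laptm5 (-1.31) and Spi1 (-1.38). Extraembryonic endoderm markers summed to 76.6 and 32.3 CPM, with 2 of 8 lower (Dab2 at -1.84 and Gata4 at -1.01) and none higher. Trophoblast markers had 2 of 6 higher and 1 lower, endothelium markers 1 of 6 higher and 1 lower. Fibroblast markers had 1 of 8 higher and 1 lower. Lower were also 1 of 7 neuron markers and 2 of 5 mesoderm and streak markers, with none higher. Hand1 and Cldn5 passed the 1 CPM filter only through cEpiSC, and T, Mixl1 and Kdr only through mESC. The part of these markers in the members' ratios was not tested. In bulk RNA, fewer cells expressing a gene and less RNA per cell cannot be told apart.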

How the data were processed

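The study sequenced 1 mESC and 1 cEpiSC library. Per the submitters' processing notes, HISAT2, Bowtie2, RSEM 1.3.1 and DESeq2 1.34.0 were used with GRCm38.p6, and the sources do not state each tool's role, the gene annotation or filtering. The deposited estimated counts are unscaled, and 11.3% (mESC) and 11.9% (cEpiSC) are over 0.005 from a whole number. TPM, deposited by the authors, is per kilobase and sums to 1000000 in each library. FPKM, also deposited by the authors, is per kilobase and scaled to fragment totals. No column of another sample was present.

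Rounded counts were scaled by TMM in edgeR 4.0.16 (R 4.3.3), and log2 ratios used a prior count of 2. Folds and their exact conditional 95% intervals use no prior count. Genes reaching 1 CPM in either library were tested by size alone and called at 2-fold. Intervals of 1 gene relative to another are exact conditional odds ratios, and those of a level are exact Poisson intervals. Because the PCR reads carry no molecular identifiers they are not independent molecules, and the intervals cover counting error only. The ratio step was tested on simulated data. Named genes are the members, Rac1, Rhog, and in each of 6 lists up to 4 genes past 2-fold by size of ratio. The members, lists and motifs were chosen with earlier results of these data known. Members were matched to RefSeq by Entrez identifier (9 of 9). Alternatives were DESeq2 1.42.0 size factors, library totals, filters, prior counts of 0.5 and 5, TPM and FPKM with a pseudocount of 1, and ratios centred on deciles of implied length. Other steps used Python 3.11.15.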

Additional observations from a re-analysis of the deposited data

How the results depend on the processing

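Across the alternatives every member kept the sign of its ratio, which the filter settings cannot change. With FPKM and a pseudocount of 1 the ratios of Dock1 (-0.95), Tiam1 (-0.96), Dock5 (0.14), Elmo1 (1.78) and Dock10 (0.21) left their counting intervals, no member was lower by 2-fold (0) and 1 was higher. With TPM and a pseudocount of 1 Dock10 stood at 0.35 and 1 member was higher, as 1 was with a filter at 5 CPM, which leaves out Dock10 and Tiam2. Centring on length moved Dock1 (-0.80), Tiam1 (-0.90), Dock4 (1.07) and Dock5 (0.36), and left 1 member lower. The FPKM sums of the libraries differ by 0.12 on the log2 scale, and a pseudocount pulls ratios of low values towards 0. For Dock1 (14.37 and 6.97), Elmo3 (5.01 and 2.15) and Tiam1 (8.6 and 3.94) the deposited FPKM, without a pseudocount, were still more than 2-fold lower. For the other members the part of each was not separated. The order of members by FPKM equals that by TPM by construction. Over all tested genes the higher count was 2712 with no filter, 970 with a filter at 5 CPM, 1091 with TPM and 945 with FPKM, and the lower count 680 with FPKM. Library totals moved the median of all genes by 0.07.

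In the lists, the filter at 5 CPM, TPM and FPKM each left 0 lower among the other Dock genes, the Rac GTPase-activating genes and the genes upstream. The other exchange factors had 0 lower with library totals, TPM, FPKM or centring, since Farp1 sits at the edge, and 2 higher with the 5 CPM filter and 1 with TPM or FPKM. FPKM left 0 lower among the GTPases, 2 higher GTPase-activating genes and 1 higher gene upstream, where TPM left 2 higher and no filter gave 2 lower. The median of the other Dock genes became -0.046 with centring, that of GTPase-activating genes 0.091 with no filter and that of genes upstream -0.16 with FPKM. Causes were not tested beyond the construction of each setting. No paired analysis was possible because each state has 1 library. Depth limits Dock10 and Tiam2 most, whose intervals are the widest of the members.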
